A study of Mus musculus with 2 samples.

Results

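The mir-29 family and Mir21a were described in microRNA-seq libraries of mouse hippocampus. The members were fixed by gene name as Mir29a, Mir29b-1, Mir29b-2, Mir29c and Mir21a, which makes 5 of the 2202 microRNA genes counted. The rule names genes and uses no measured value, although earlier results of these data were known when the genes were listed. The tissue came from B6CASTF1/J females, hybrids of a C57BL/6J and a CAST parent, at 10 days of age, with no treatment and no engineered allele named in the labels. The series holds 1 group of 2 libraries, called biological replicates 1 and 2, each from RNA attributed to its own set of 3 females, so a library is a pool of animals. No second age, tissue or treatment was measured here, so the comparisons are of levels between genes and of the 2 libraries with each other.

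MicroRNAs are cut from hairpin transcripts to short mature strands, one from each arm (5p and 3p), and pair with messenger RNAs mainly through the seed, bases 2 to 8. The mir-29 genes lie in a pair of clusters that each make 2 hairpins, and in mouse brain their products are known to rise as neurons and glia mature after birth. Known targets of miR-29 include the DNA methyltransferase Dnmt3a, collagen genes and BH3-only cell death genes. Mir21a is known from many cell types, rises in reactive astrocytes after injury, and represses Pdcd4. Both are called astrocyte microRNAs in other work. Because only microRNA genes were counted, protein markers of astrocytes could not be checked, and in whole tissue fewer cells of a type and less RNA per cell cannot be told apart.

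The mature strands that carry the known activity are printed with the seed in capitals, 5′ to 3′, from RefSeq (GRCm38.p6), because the 3 mir-29 forms differ only after the seed and the 29b form is the same at both loci. Each of the 5 hairpins matched RefSeq by symbol.
miR-29a-3p: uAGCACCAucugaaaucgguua
miR-29c-3p: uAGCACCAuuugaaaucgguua
miR-29b-3p: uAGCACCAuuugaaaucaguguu
miR-21a-5p: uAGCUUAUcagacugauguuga
miR-21c: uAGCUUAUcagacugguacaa

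All mir-29 3p strands share the seed AGCACCA, and no other mature strand in the RefSeq table has it. With positions counted from 1 at the 5′ end, miR-29c-3p differs from miR-29a-3p by the single substitution C10U. The miR-29b-3p strand, 1 base longer, differs from miR-29c-3p by G18A, U21G and A22U over the 22 positions compared. The longest run of bases in common was 12 nt between the 29a and 29c strands, 9 nt between 29a and 29b, and 17 nt between 29c and 29b. The seed of miR-21a-5p was shared by miR-21c alone, a strand annotated on chromosome 8, and Mir21c was listed with 0 counts in both libraries. The further copy Mir21b was also at 0. Neither copy holds the whole miR-21a-5p, the longest run shared with the Mir21a hairpin being 15 nt in Mir21c and 13 nt in Mir21b.

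Positions are given on mm10 (GRCm38), as annotated by GENCODE M21. Mir29a (ENSMUSG00000065610.1, chromosome 6, 31062660 to 31062747, minus strand) and Mir29b-1 (ENSMUSG00000065604.2, chromosome 6, 31063023 to 31063093, minus strand) lie 275 bases apart, and the first 2 bases of Mir29b-1 overlap Gm27019, annotated as a lincRNA. Mir29b-2 (ENSMUSG00000065412.3, chromosome 1, 195037040 to 195037120, plus strand) and Mir29c (ENSMUSG00000065548.1, chromosome 1, 195037547 to 195037634, plus strand) lie 426 bases apart. Both of these fall within an exon of A330023F24Rik, a processed transcript without a protein, and, on the opposite strand, in an untranslated region of Cd46, a complement regulator. Mir21a (ENSMUSG00000065455.1, chromosome 11, 86584067 to 86584158, minus strand) lies in an untranslated region of the last annotated exon of Vmp1, an autophagy gene, on the same strand.

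The Mir29b-1 and Mir29b-2 hairpins share a run of 25 nt, which contains the whole of miR-29b-3p, and the stretch is shown because it decides what the counts of these genes can hold. The stretch lies at chr6:31063025-31063049 on the minus strand and at chr1:195037089-195037113 on the plus strand, and capitals mark the mature strand within it.
Shared stretch of Mir29b-1 and Mir29b-2: ucUAGCACCAUUUGAAAUCAGUGUU
A read of the whole miR-29b-3p matches both genes equally, and the files set reads with more than 1 matching place apart from all genes. Such reads made up 39.3% of all reads in replicate 2 and 43.2% in replicate 1, and how many of them were miR-29b-3p is not known. The levels of Mir29b-1 and Mir29b-2 therefore cover only reads with a unique place, and their 5p strands, which differ, were each found in 1 microRNA gene. The 5p and 3p strands of Mir29a, Mir29c and Mir21a were likewise found in 1 microRNA gene each among the annotated transcripts. For scale, 49 of 385 detected genes with a mature strand in the RefSeq table (12.7%) have one that is found in more than 1 microRNA gene.

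Replicate 2 held 3563226 sense counts on microRNA genes and replicate 1 held 5479267. Values are counts per 1000000 of these (CPM), are not divided by hairpin length, which ran from 71 to 92 bases among the members, and do not tell the 5p and 3p arms apart. Detected means at least 10 counts in each library, which 429 genes reached, 19.5% of all, and all 5 members did.

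Mir29a was the most abundant member by mean level and Mir21a the next, but their order was opposite in the 2 libraries. Mir29a had 6678 counts in replicate 2, against 5167 in replicate 1, or 1874 and 943 CPM, a mean of 1409 ± 658 CPM (SD, n = 2). Mir21a had 1571 counts in replicate 2, against 7418 in replicate 1, or 441 and 1354 CPM, a mean of 897 ± 646 CPM (SD, n = 2). Replicate 2 was thus the high library for Mir29a and the low one for Mir21a, and the ranges of these 2 genes overlapped. Among the detected genes Mir29a stood at rank 79 in replicate 2 and rank 118 in replicate 1, and Mir21a at ranks 145 and 96.

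Mir29c, which gives the strand that differs from that of Mir29a by 1 base, was well below both. Its counts were 701 in replicate 2 and 957 in replicate 1, or 197 and 175 CPM, a mean of 186 ± 15.6 CPM (SD, n = 2), at ranks 185 and 189. Each of its values lay below each value of Mir29a and Mir21a, and above each value of the 29b genes. Mir29b-1 had 154 counts in replicate 2, against 153 in replicate 1, or 43.2 and 27.9 CPM, a mean of 35.6 ± 10.8 CPM (SD, n = 2). Mir29b-2 had 117 counts in replicate 2, against 143 in replicate 1, or 32.8 and 26.1 CPM, a mean of 29.5 ± 4.76 CPM (SD, n = 2). The values of the 29b copies overlapped, so their order was not resolved. The median of the mean level over all detected genes was 87.8 CPM, so Mir29a, Mir21a and Mir29c lay above it and both 29b genes below it.

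**Figure D1:**
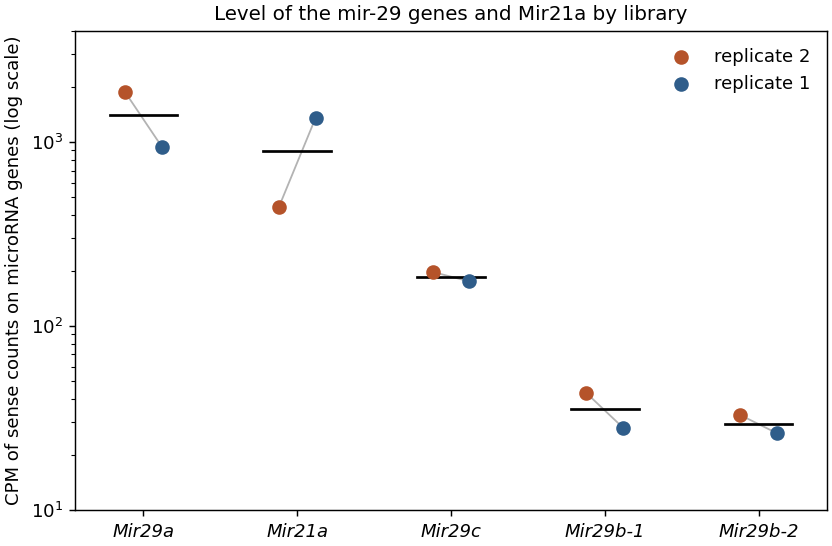
Level of each member in CPM (log axis) in replicate 2 (orange, left) and replicate 1 (blue, right), with the mean as a bar. Mir29a stood at 1874 and 943 CPM and Mir21a at 441 and 1354 CPM, while the 29b genes lay below 50 CPM in both libraries.

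Together the 4 mir-29 genes held 0.215% of the sense counts in replicate 2 and 0.117% in replicate 1, a mean of 0.166% ± 0.0690 (SD, n = 2). With Mir21a added, the shares were 0.259% and 0.253%, because the gain in one and the loss in the other were of similar size. Of the family's counts, Mir29a gave 87.3% in replicate 2 (exact Clopper-Pearson interval at 95%, 86.5% to 88.0%) and 80.5% in replicate 1 (79.5% to 81.4%). Mir29c gave 9.16% in replicate 2 (8.53% to 9.83%) and 14.9% in replicate 1 (14.0% to 15.8%). These intervals do not overlap between the libraries, and their width reflects counting alone: the reads carry no molecular identifiers, so they are not independent molecules. Mir29b-1 gave 2.01% in replicate 2 and 2.38% in replicate 1, and Mir29b-2 gave 1.53% in replicate 2 and 2.23% in replicate 1. By locus, the chromosome 6 pair summed to 1917 CPM in replicate 2, against 971 CPM in replicate 1, and the chromosome 1 pair to 230 and 201 CPM. The chromosome 6 locus held 89.3% of the family's counts in replicate 2 and 82.9% in replicate 1. With reads of the whole miR-29b-3p in no gene, these shares describe mainly Mir29a and Mir29c.

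Each gene's counts in the libraries were put to a two-sided exact binomial test after TMM scaling, with Benjamini-Hochberg adjustment over all 429 detected genes. The test compares these 2 libraries beyond counting error, not conditions, and 61.3% of detected genes passed at 0.05, 28.7% higher and 32.6% lower in replicate 2. The split depended on the scaling, at 123 higher and 140 lower with TMM factors, 112 and 150 with DESeq2 size factors, and 137 and 123 with library totals. Of the 5 members, 2 were higher in replicate 2, 1 was lower and 2 did not pass, a share close to that background. Mir21a was lower in replicate 2, with a log2 ratio of replicate 2 to replicate 1 of -1.68 (exact interval -1.76 to -1.60), which is 3.21-fold, and an adjusted p that was 0 at machine precision in the exact binomial test. Only 6 of the 429 detected genes had a lower ratio. Mir29a was higher in replicate 2 with a log2 ratio of 0.93 (0.88 to 0.98), 1.90-fold, at an adjusted p of 5.78e-266 in the exact binomial test, and 32 detected genes had a higher ratio. Mir29b-1, its neighbour on chromosome 6, was higher with a log2 ratio of 0.57 (0.24 to 0.90) at an adjusted p of 0.00121 in the exact binomial test.

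The chromosome 1 genes did not pass this test. Mir29b-2 had a log2 ratio of 0.27 (-0.10 to 0.63) at an adjusted p of 0.204, and Mir29c one of 0.11 (-0.03 to 0.25) at an adjusted p of 0.182, both in the exact binomial test. With scaling by library totals, Mir29c passed, with a log2 ratio of 0.17 and an adjusted p of 0.0291 in the exact binomial test. The ratio was above 0 for all 4 mir-29 genes with TMM factors, DESeq2 size factors and library totals. The median log2 ratio was 0.42 over the mir-29 genes and 0.04 over all detected genes. The former lies between the 29b genes, whose counts leave out reads of the whole miR-29b-3p, with Mir29a at 0.93 and Mir29c at 0.11. The median absolute log2 ratio over all detected genes was 0.33. A difference of at least 2-fold was found for 12.1% of detected genes, among the members for Mir21a alone.

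**Figure D2:**
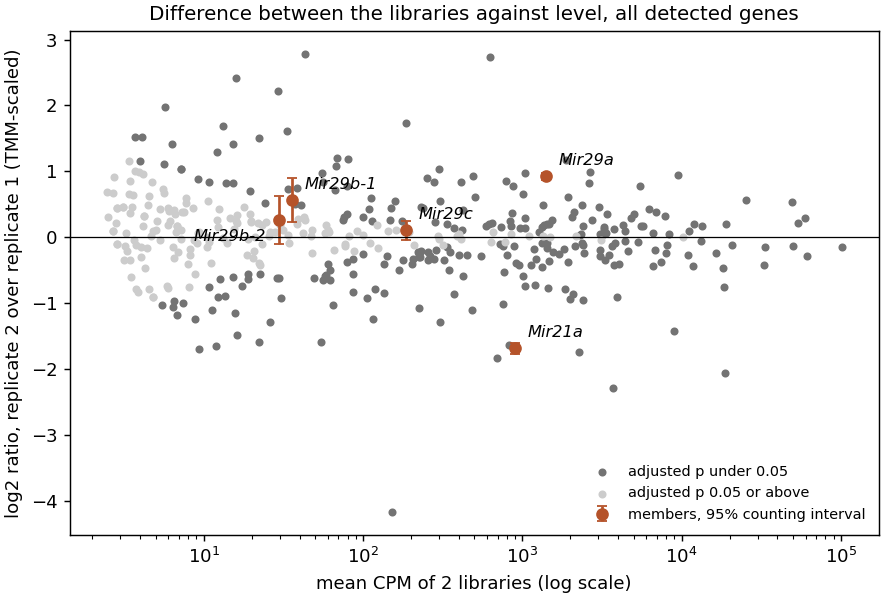
Log2 ratio of replicate 2 to replicate 1 against mean CPM (log axis) for the 429 detected genes, dark where the exact binomial test passed at 0.05, with members in orange and their exact 95% counting intervals. Mir21a at -1.68 lies near the low edge of the cloud, Mir29a at 0.93 in its upper part, and Mir29c at 0.11 near 0.

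The ratio of 2 members within a library does not depend on how the libraries are scaled, and a two-sided Fisher's exact test, adjusted over 10 pairs, was run for every pair of members. The ratio differed for 8 of 10 pairs, which again compares 2 libraries only. Mir29a had 4.25 counts for each count of Mir21a in replicate 2 and 0.697 in replicate 1, a 6.10-fold difference with an adjusted p of 0 at machine precision in Fisher's exact test. The other mir-29 genes also gained on Mir21a, Mir29c with 0.446 counts per count of Mir21a in replicate 2 and 0.129 in replicate 1, a 3.46-fold difference (Fisher's exact test, adjusted p = 3.91e-99). All 4 pairs with Mir21a passed.

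Within the family, 4 of 6 pairs passed. Mir29a had 9.53 counts per count of Mir29c in replicate 2 and 5.40 in replicate 1, a 1.76-fold difference (Fisher's exact test, adjusted p = 1.24e-26). The counts of the cluster neighbours Mir29a and Mir29b-1 also shifted against each other, at 43.4 counts of Mir29a per count of Mir29b-1 in replicate 2 and 33.8 in replicate 1, 1.28-fold (Fisher's exact test, adjusted p = 0.0390). Reads of the whole miR-29b-3p are in no gene, so pairs of a 29b gene with Mir29a, Mir29c or Mir21a compare unlike parts of the hairpins. The neighbours on chromosome 1 were not shown to differ, at 0.167 counts of Mir29b-2 per count of Mir29c in replicate 2 and 0.149 in replicate 1 (Fisher's exact test, adjusted p = 0.419). The 29b copies had 1.32 counts of Mir29b-1 per count of Mir29b-2 in replicate 2 and 1.07 in replicate 1 (Fisher's exact test, adjusted p = 0.264).

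**Figure D3:**
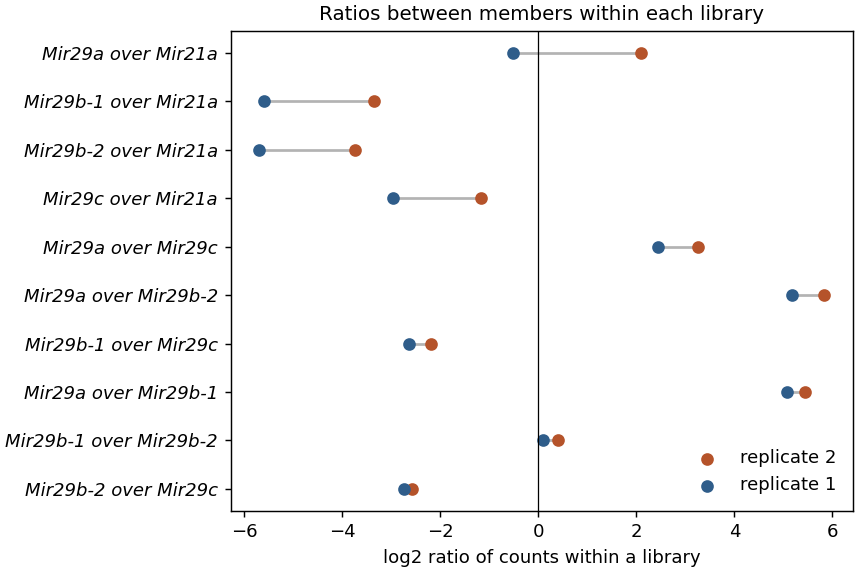
Log2 ratio of the counts of 2 members within replicate 2 (orange) and within replicate 1 (blue), for the 10 pairs. The widest gap is that of Mir29a over Mir21a, at 2.09 in replicate 2 and -0.52 in replicate 1, and the narrowest that of Mir29b-2 over Mir29c.

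Genes with the most similar levels were found by distance in the plane of the log2(CPM + 1) values of the 2 libraries, 2 points a gene, which is a description of level and ratio together. Nearest to Mir21a was Mir1839 at a distance of 0.17, with 414 CPM in replicate 2, against 1229 CPM in replicate 1. It was followed by Mir665 at 518 and 998 CPM and Mir31 at 315 and 1069 CPM. Nearest to Mir29a was Mir92-1, of the mir-17-92 cluster, at a distance of 0.31, with 1615 CPM in replicate 2, against 1101 CPM in replicate 1. Mir467d, of the repeat cluster in Sfmbt2, and Mir204, known from choroid plexus, followed at 0.53 each. Nearest to Mir29c was Mir384 at a distance of 0.10, with 204 CPM in replicate 2, against 185 CPM in replicate 1, followed by Mir130b at 0.15 and Mir325 at 0.28.

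Other microRNAs reported from astrocytes did not move as a group. Of 9 on that list, 8 were detected, 2 higher and 4 lower in replicate 2. Over all detected genes, 28.7% were higher and 32.6% lower. The list's median log2 ratio was 0.04, equal to that over all detected genes at this precision. Mir23b, in a cluster with Mir27b and Mir24-1, stood at 14585 CPM in replicate 2, against 12404 CPM in replicate 1, and Mir23a at 7054 and 3922 CPM, a log2 ratio of 0.78 near that of Mir29a. The list also holds the lowest ratio of all, that of Mir26a-2 at -4.16, from 59 counts in replicate 2 and 1563 in replicate 1. Like all counts here, these leave out reads with more than 1 matching place, so the ratio covers uniquely placed reads only. MicroRNAs known from injury and inflammation, where Mir21a is also placed, were 2 higher, 2 lower and 2 without a call among 6 detected. Mir222, whose cluster mate is Mir221, was higher at 2655 CPM in replicate 2, against 1130 CPM in replicate 1, and Mir221 at 5425 and 4218 CPM. Mir146, induced by NF-kB signalling, was lower at 832 and 1069 CPM. Of the other members, Mir223 was lower with a log2 ratio of -0.60 and Mir146b and Mir155 did not pass, at 0.63 and -0.20.

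Markers of the other cell types that the dissected tissue could hold were set beside the drop of Mir21a in replicate 2. The microglia and myeloid list, 5 of 5 detected, summed to 1964 CPM in replicate 2, against 1936 CPM in replicate 1, with 2 higher and 2 lower. The shares over all detected genes were 28.7% higher and 32.6% lower. Most of both sums came from Mir146, at 832 CPM in replicate 2 and 1069 in replicate 1, and Mir150, at 988 and 729 CPM. Mir142 and Mir150 were higher at log2 ratios of 0.74 and 0.38, Mir146 and Mir223 were lower at -0.42 and -0.60, and Mir155 did not pass. Mir146, Mir155 and Mir223 are also on the injury and inflammation list, so their values are the same ones given there. Mir126a, of endothelium, stood at 7986 and 8303 CPM, a log2 ratio of -0.12. The mural cell list of Mir143 and Mir145a, both detected and both lower, summed to 3152 and 3453 CPM. The fibroblast and meninges list had 1 of 4 detected, Mir214, lower at 251 counts in replicate 2 and 478 in replicate 1, and its sum was 72.1 and 88.0 CPM. Mir199a-1 was at 0 in both libraries, Mir199a-2 had 2 counts in each, and Mir199b had 4 counts in replicate 2, against 2 in replicate 1. Because reads with more than 1 matching place are in no gene, these low counts do not show that the strands were absent.

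The red cell list, 3 of 3 detected and none with a call, summed to 64.3 CPM in replicate 2, against 55.5 CPM in replicate 1. The choroid plexus and ependyma list, 5 of 5 detected, summed to 6132 and 6229 CPM, with 1 higher and 2 lower. The oligodendrocyte list, 3 of 3 detected, summed to 2041 and 1563 CPM, with Mir219a-2 higher at 1248 CPM in replicate 2, against 760 CPM in replicate 1. The other 2 did not pass, Mir338 at 776 CPM in replicate 2, against 783 CPM in replicate 1, and Mir219a-1 at a log2 ratio of -0.26, and the list's median log2 ratio was -0.08. The neuron list, 7 of 9 detected, summed to 29632 and 26978 CPM, with 5 higher and 2 lower. For all lists here, the background is 28.7% higher and 32.6% lower over all detected genes. The lower genes were Mir132, the most abundant of the list by mean level, at a log2 ratio of -0.24, and Mir128-2 at -0.12. Mir132 stood at 7545 CPM in replicate 2, against 8514 CPM in replicate 1. Mir124a-1 was among the higher genes with only 20 counts in replicate 2 and 10 in replicate 1. Mir124a-2 and Mir124a-3 were not detected. Reads with more than 1 matching place are in no gene, so all list sums and counts cover uniquely placed reads only. The part of these cell types in the differences of Mir21a and Mir29a was not tested.

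**Figure D4:**
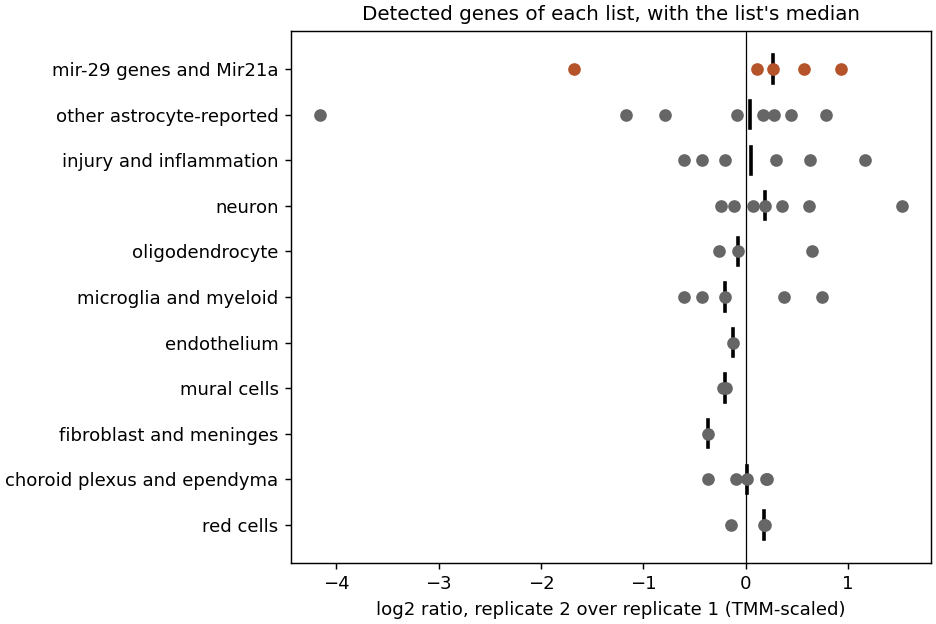
Log2 ratio of replicate 2 to replicate 1 for each detected gene of the members (orange) and of the 10 lists (grey), with the median of each as a black bar. Mir21a at -1.68 lies apart from the 4 mir-29 genes, which lie between 0.11 and 0.93, and list medians lie between -0.37 and 0.19.

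Antisense counts on the members were 0 in both libraries, apart from 1 count on Mir21a in replicate 2. Counts made without regard to strand were therefore the same as the sense counts for the mir-29 genes, and 1572 in replicate 2 and 7418 in replicate 1 for Mir21a. Cd46, which is annotated over Mir29c and Mir29b-2 on the other strand, left no count on them.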

How the data were processed

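Small RNA below 30 nt from 2 libraries was counted per microRNA gene. The deposited values are raw read counts in 1 file per library, replicates not pooled. Per the notes deposited beside them, they rest on mm10 with GENCODE M21. Which aligner, counter and filters were used is not given in the sources used here. The strand column with the larger total (column 3) was taken as sense. All 2202 gene identifiers matched GENCODE M21. Rows without a gene were left out of library sizes: in replicates 2 and 1, reads with several matching places made up 39.3% and 43.2%, unmapped reads 18.0% and 14.2%, and reads outside any microRNA gene 5.17% and 6.16%.

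CPM used the sense total on microRNA genes. Log2 ratios add 0.5 counts to each library and use TMM factors of edgeR 4.0.16 (1.02 for replicate 2, 0.979 for replicate 1). Exact tests used scipy 1.17.1. The binomial test was tested on simulated counts with counting error and planted changes only. Other variation between libraries was not simulated, so that run does not cover it. The sets of females are separate per the labels, so the spread covers animals, dissection and library making. Mature strands were searched in the GENCODE M21 transcripts rather than the genome. The members, the 10 lists, the tests and the alternatives were chosen with earlier results of these data known. Named genes are the members, the 3 nearest genes of Mir29a, Mir29c and Mir21a, up to 2 of the most abundant genes of each list, and genes that share a seed. Mir26a-2, Mir128-2, Mir142, Mir146b, Mir155, Mir219a-1, Mir223, the Mir124a genes, the Mir199 genes and Mir21b were named after their values were seen.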

Additional observations from a re-analysis of the deposited data

How the results depend on the processing

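Alternatives were DESeq2 size factors (version 1.42.0) or library totals in place of TMM, counts without regard to strand, minimums of 1, 5 or 100 counts, 0.1 counts added to ratios, and leaving out each library. No member's log2 ratio changed sign, and 1 call was gained: Mir29c, with a log2 ratio of 0.17 under library totals. The split of calls over all detected genes turned to 137 higher and 123 lower in replicate 2 under library totals. Across the settings the log2 ratio ran from -1.72 to -1.62 for Mir21a, from 0.88 to 0.99 for Mir29a and from 0.52 to 0.63 for Mir29b-1. All 5 members were detected at each minimum. Without one library, the mean level of Mir29a is 943 or 1874 CPM and that of Mir21a 441 or 1354 CPM, so Mir21a and not Mir29a leads the members without replicate 2. No paired analysis was possible because the series has 1 group. With 2 libraries, differences between them cannot be assigned to animals, dissection or library making.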
